A study of Mus musculus with 3 samples.

Results

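Weibel-Palade bodies are the storage granules of endothelial cells, and 8 genes of their cargo and exocytosis were described in brain microvascular fragments: the cargo genes Vwf, Selp and Cd63, the Rab GTPase genes Rab27a, Rab3b and Rab3d, and the effector genes Sytl4 and Unc13d. They were taken by gene symbol from the count table, which holds 56941 genes, and all 8 were found. The fragments are short pieces of small vessel freed from brain by mechanical and enzymatic dissociation. The 3 libraries came from adult wild-type C57BL/6J mice, replicates 1 to 3, with no treatment, no altered allele and no second group. Sex, exact age and batch are not given in the labels, and the design text's wording of 3 mice was the basis for treating each replicate as its own animal. Every comparison is therefore between genes or between the 3 libraries. Depth ranged from 128428355 to 150449539 counts per library. The defining endothelial markers were present: all 16 of a list were detected, with Pecam1 at 1251, 1419 and 1639 CPM (counts scaled to a common effective library size, with no regard to gene length) and Cdh5 at 1000, 1084 and 1119 CPM in replicates 1, 2 and 3. Other cells were present as well. The microglial gene Csf1r had 2055, 1600 and 1926 CPM, and the smooth muscle gene Acta2 2549, 2124 and 2709 CPM. The part of each cell type in the levels below was not tested.

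The granule forms around von Willebrand factor, a very large glycoprotein that packs into tubules and, once released, catches platelets at a damaged vessel wall. P-selectin, the leukocyte receptor encoded by Selp, and the tetraspanin CD63 sit in the granule membrane and reach the cell surface when the granule fuses. Rab27 and Rab3 proteins on the granule recruit effectors that hold it at the cell cortex and prime it for fusion, and release is triggered by agonists such as thrombin and histamine. Several of these proteins also serve granules of other cells: platelets store von Willebrand factor and P-selectin, and Rab3B, Rab27A and granuphilin act in hormone-secreting cells.

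Vwf was by far the most abundant of the 8 genes, and Cd63, Rab3d and Rab27a were moderate. Selp and Rab3b were the scarcest, close to the chosen threshold of 1 CPM in replicates 1 and 3. Neither was near 0, since the lowest values were 131 counts for Selp and 99 for Rab3b, both in replicate 1. At 1 CPM or more in every library, 7 of the 8 were detected, against 23.2% of all 56941 genes. Rab3b was the exception. Divided by exonic length and scaled to the same sum in each library (TPM, a level per length), the order of mean levels was Vwf, Cd63, Rab3d, Rab27a, Sytl4, Unc13d, Selp and Rab3b. The ranges over the 3 libraries did not overlap between Vwf and Cd63, Cd63 and Rab3d, Rab27a and Sytl4, or Sytl4 and Unc13d. They did overlap between Rab3d and Rab27a, Unc13d and Selp, and Selp and Rab3b. Within each library Selp was the higher of the last pair in 3 of 3, by 1.06-fold to 1.205-fold, while Rab3d and Unc13d were the higher of theirs in 2 of 3. A sign-flip test over 3 libraries cannot give a p under 0.25, so the order is a description.

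**Figure D1:**
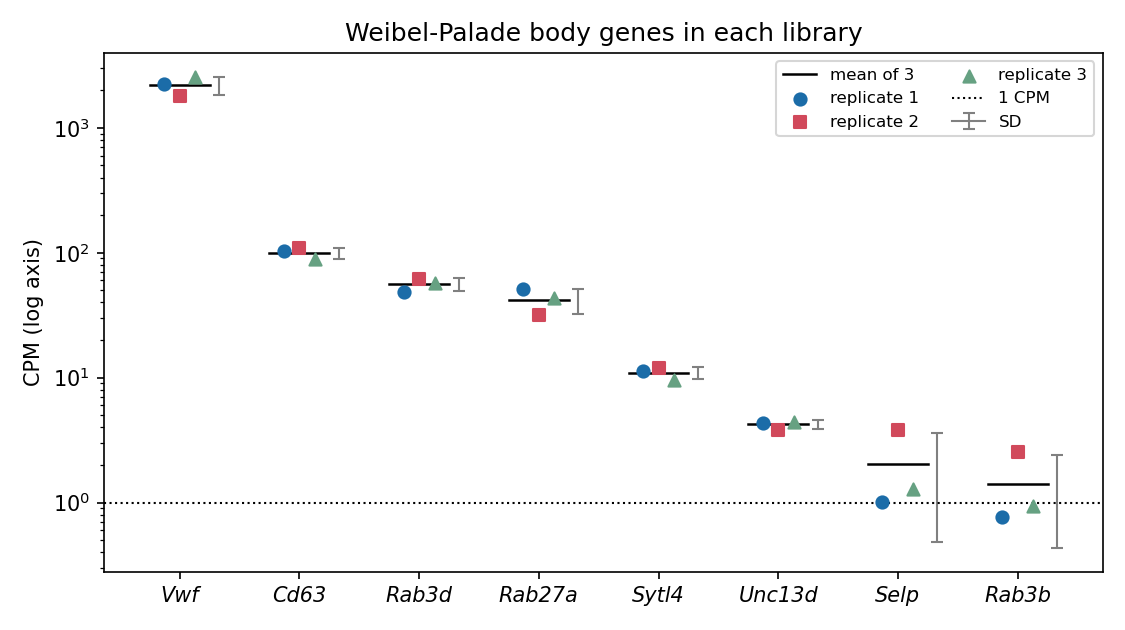
Level of each Weibel-Palade body gene in CPM (log axis) in replicates 1, 2 and 3, with the mean (black line) and SD (grey bar) of the 3 libraries, ordered by mean TPM. Vwf lies between 1793 and 2545 CPM, whereas Selp and Rab3b straddle or touch the dotted 1 CPM line and are highest in replicate 2.

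Among the cargo genes, Vwf had 2245, 1793 and 2545 CPM in replicates 1, 2 and 3, a mean of 2194 ± 378 CPM (SD, n = 3). Replicate 2 was the lowest and the highest library was 1.42-fold above it. Per length, Vwf had 467 ± 68.6 TPM, rank 300 among the 12826 detected genes with a known length. The endothelial junction genes Pecam1 and Cdh5 stood above it in TPM in 3 of 3 libraries, by 1.44-fold, 2.04-fold and 1.66-fold for Pecam1 in replicates 1, 2 and 3. In CPM, with no regard to length, Vwf was above both in each library. Pecam1 had 1251, 1419 and 1639 CPM and Cdh5 1000, 1084 and 1119 CPM. The exonic length of Vwf depends on the gene model: the union of its exons covers 16064 bp and its longest transcript 8834 bp, and the latter gave 661 ± 96.5 TPM. Its order beside Pecam1 and Cdh5 was not examined with that length.

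Cd63, which encodes a tetraspanin of late endosomes as well as of Weibel-Palade bodies, had 102, 109 and 88.6 CPM, a mean of 99.9 ± 10.3 CPM. Its 3 libraries spanned 1.23-fold, or 0.29 on the log2 scale, and 0.50 when scaled to the endothelial markers. It had 93.2 ± 12.04 TPM by exonic union and 217 ± 28.8 TPM by its principal transcript of 1109 bp, a length chosen after the data were seen; the order of the 8 genes was the same. A processed pseudogene, Cd63-ps, shares sequence with it, and 11.0% of the 50-base words of Cd63 transcripts occur in transcripts of other genes, so a part of its reads may have been assigned elsewhere. Cd63-ps itself had 47, 53 and 39 counts beside 13331, 15186 and 12863 for Cd63.

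Selp was scarce in each library and uneven between them. It had 131, 537 and 188 counts, which is 1.01, 3.84 and 1.30 CPM in replicates 1, 2 and 3. Replicate 2 stood 3.82-fold above replicate 1 and 2.97-fold above replicate 3. The exact 95% Poisson intervals were 0.842 to 1.19, 3.52 to 4.18 and 1.12 to 1.49 CPM, so replicate 2 lay apart from both others by more than counting error, which is all these intervals cover. Replicate 1 reached the 1 CPM limit only narrowly. The mean was 2.05 ± 1.56 CPM (SD, n = 3), and 1.15 CPM without replicate 2. Per length, Vwf exceeded Selp by 613-fold, 128-fold and 540-fold in replicates 1, 2 and 3. A stretch of 14.1% of the exonic length of Selp lies under Gm16548 and Gm16587 on the opposite strand. The strand setting of the counting is not given, but these genes had at most 12 counts in any library.

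Of the Rab GTPases, which mark the granule membrane and recruit its effectors, Rab3d and Rab27a were expressed at similar levels. Rab3d had 48.6, 62.0 and 57.6 CPM, a mean of 56.1 ± 6.79 CPM, and 45.8 ± 5.92 TPM. Rab27a, whose protein binds the effectors MyRIP, granuphilin and Munc13-4, had 50.8, 31.6 and 43.6 CPM, a mean of 42.0 ± 9.70 CPM, and 37.1 ± 8.29 TPM. Rab27a was lowest in replicate 2 and Rab3d lowest in replicate 1. As a result their TPM ratio changed sides, with Rab27a 1.13-fold of Rab3d in replicate 1, 0.553-fold in replicate 2 and 0.819-fold in replicate 3.

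Rab3b was the scarcest member. It had 99, 356 and 136 counts, or 0.761, 2.55 and 0.937 CPM, so it passed 1 CPM in replicate 2 alone. Replicate 2 was 3.35-fold above replicate 1 and 2.72-fold above replicate 3. The exact 95% Poisson intervals, 0.618 to 0.926, 2.29 to 2.83 and 0.786 to 1.11 CPM, again set replicate 2 apart from both others. The mean was 1.41 ± 0.984 CPM (SD, n = 3), and 0.849 CPM without replicate 2. Annotated exons of 8030443G20Rik on the opposite strand cover 9.0% of its exonic length, and that gene had 0 counts in each library.

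The paralogs of these GTPases came from a list of other pathway genes. Rab3a, the main isoform of synaptic vesicles, had 41.0 ± 4.32 TPM, close to Rab3d, which exceeded it by 1.09-fold, 1.15-fold and 1.11-fold in replicates 1, 2 and 3. Rab3d exceeded Rab3b by 53.7-fold, 20.4-fold and 51.7-fold. Rab3c had 1.43 ± 0.184 TPM. Rab27b was at 0.868, 0.951 and 0.400 CPM, below the limit in each library, and Rab27a exceeded it per length by 161-fold, 91.6-fold and 301-fold. Thus Rab3d and Rab3a led the Rab3 genes in 3 of 3 libraries, and Rab27a led Rab27b in 3 of 3.

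The effectors were lower than the main GTPases. Sytl4, which encodes granuphilin (Slp4), an effector that binds both Rab27 and Rab3 proteins, had 11.4, 11.9 and 9.54 CPM, a mean of 10.9 ± 1.23 CPM and 7.33 ± 1.01 TPM. Unc13d, which encodes the priming factor Munc13-4, had 4.37, 3.84 and 4.46 CPM, a mean of 4.22 ± 0.334 CPM and 3.09 ± 0.183 TPM. Their spans over the libraries were 1.24-fold and 1.16-fold, or 0.31 and 0.21 on the log2 scale, and widened to 0.55 and 0.35 when the libraries were scaled to the endothelial markers. Rab27a exceeded Sytl4 by 5.89-fold, 3.53-fold and 6.04-fold and Unc13d by 14.0-fold, 9.94-fold and 11.8-fold, per length. Unc13d is also known from cytotoxic lymphocytes; of their genes, Prf1 had 0.156 ± 0.0384 CPM and Gzmb 0.0915 ± 0.0673 CPM, and their part in the level of Unc13d was not tested.

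Among paralogs of the effectors, Sytl2 was the only other synaptotagmin-like gene of the list detected at 1 CPM in every library. It had 4.42 ± 0.697 TPM, and per length Sytl4 exceeded it by 1.497-fold, 1.85-fold and 1.66-fold. In CPM, with no regard to length, Sytl2 was the higher, at 20.7, 17.5 and 15.7 CPM beside 11.4, 11.9 and 9.54 CPM. The order of Sytl4 and Sytl2 thus depends on their exonic lengths, and other lengths were not tried for Sytl2. Sytl1 had 0.263 ± 0.0119 CPM, Sytl3 0.520 ± 0.154 CPM and Sytl5 0.0682 ± 0.0371 CPM. Unc13b, which encodes the related Munc13-2 and was named after its values were seen, exceeded Unc13d per length by 5.08-fold, 5.58-fold and 6.28-fold.

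Whether the members varied between the mice beyond the trend of all fitted genes was asked gene by gene in edgeR. Each gene's quasi-likelihood dispersion was set against the trend over 18087 fitted genes, all 8 members among them. At an adjusted p under 0.05, 0 of the 8 members were called, against 0.0829% of all fitted genes. With no adjustment, 3 of 8 lay under 0.05, against 5.18% of all genes. These were Selp (edgeR adjusted p = 0.644), Rab3b (edgeR adjusted p = 0.824) and Rab27a (edgeR adjusted p = 0.930). DESeq2 marked 1 member, Selp, as a dispersion outlier, against 0.449% of the 30513 genes with a count. Without the filter on low counts edgeR also called Selp (adjusted p = 0.0372), against 0.567% of 30513 genes. The adjusted p of Selp ranged from 0.0372 to 0.997 over the edgeR alternatives, and the highest came without replicate 2. The median span of the 8 genes over the libraries was 0.43 on the log2 scale, against 0.33 over all fitted genes.

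Selp and Rab3b were the members that set replicate 2 apart. By a rule chosen after the values were seen, CPM in replicate 2 at least 2-fold above both other libraries, 2 of the 8 members qualified, against 0.746% of the fitted genes. Since the rule was drawn from these values, the count is a description and no test of enrichment. Their deviations from their own mean log2 CPM were -0.77, 1.17 and -0.40 for Selp and -0.68, 1.06 and -0.38 for Rab3b. Rab27a ran the other way, at 0.30, -0.38 and 0.08, as did Vwf, at 0.05, -0.28 and 0.23. The other 4 members deviated by at most 0.20 in either direction. Scaling to the 16 endothelial markers in place of TMM, which shifts all genes by 0.15, -0.01 and -0.14 in replicates 1, 2 and 3, left replicate 2 highest for Selp (1.12, 3.81 and 1.18 CPM) and Rab3b (0.846, 2.52 and 0.850 CPM). It left replicate 2 lowest for Vwf and Rab27a, but moved the highest library of Vwf, Cd63, Sytl4 and Unc13d to replicate 1.

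**Figure D2:**
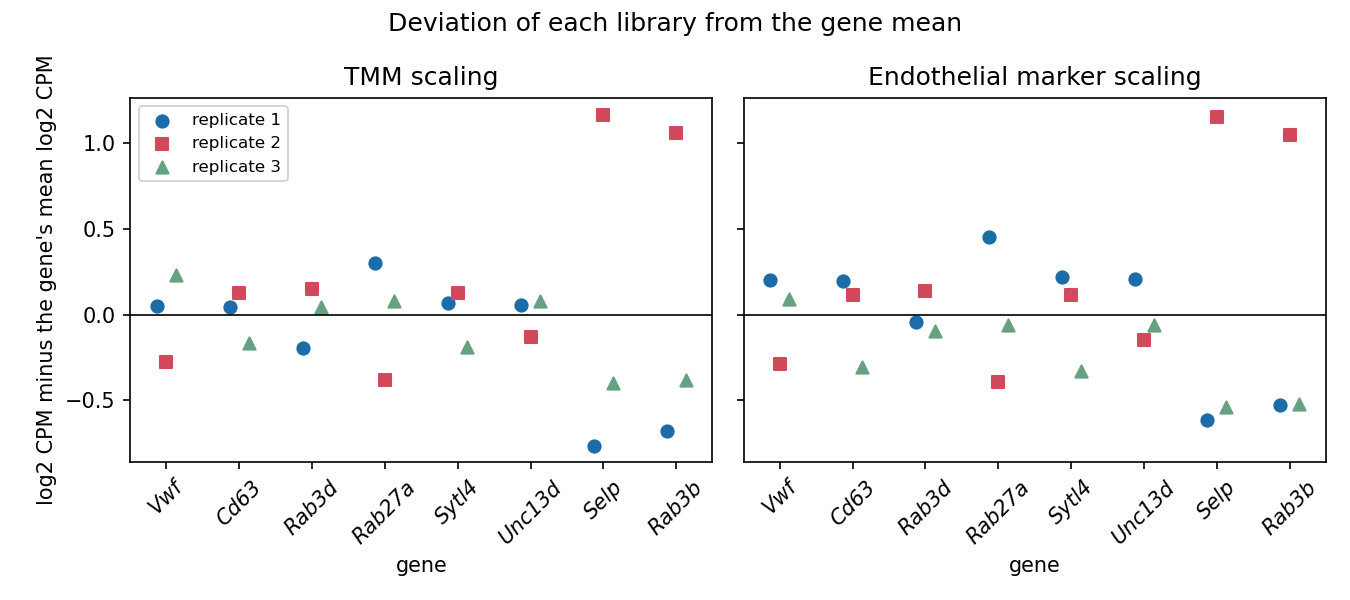
Log2 CPM of each member in replicates 1, 2 and 3 minus the gene's own mean, with TMM scaling (left) and with the endothelial marker list set equal in every library (right). Replicate 2 lies about 1 log2 unit above the mean for Selp and Rab3b in both panels and below it for Vwf and Rab27a.

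The marker lists of other cells differed in which library was highest, and their likeness to Selp and Rab3b was not tested. In replicate 2, 9 of the 10 fitted genes of a list of 11 pituitary secretory cell genes were at least 2-fold above both other libraries, and the summed list had 48.2, 1659 and 60.5 CPM. This list was chosen with earlier results of these data known, so its count is a description as well. The hormone genes Gh, at 0.108, 1233 and 0.262 CPM, and Prl, at 0.200, 47.8 and 0.475 CPM, were near 0 in replicates 1 and 3, and no gene of this list was at 0 counts. Of the 8 genes of a venous endothelial list, 1 met the same rule, Ackr1, a venular chemokine receptor, with 31.6, 147 and 47.1 CPM. Vcam1, the leukocyte adhesion molecule, had 271, 709 and 408 CPM and Icam1 83.2, 298 and 156 CPM (Ackr1 and Icam1 were named after their values were seen), and the list summed to 1548, 2245 and 1771 CPM. In all, 3 of the 8 were highest in replicate 2. The other 5 were not: the venous transcription factor gene Nr2f2 had 107, 75.3 and 78.1 CPM, Slc38a5 400.0, 367 and 283 CPM, Lcn2 23.4, 46.3 and 51.2 CPM, Ephb4 315, 311 and 376 CPM and Tmsb10 316, 291 and 372 CPM. The part of the pituitary or the venous transcripts in the values of Selp and Rab3b was not tested. Among the endothelial markers, 0 of 16 met the rule, and the sums were 20532, 23277 and 25815 CPM. In bulk RNA, fewer cells of a type and less RNA per cell cannot be told apart.

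Platelets are another known source of Vwf and Selp transcripts. The 9 platelet and megakaryocyte genes summed to 26.9, 9.34 and 11.2 CPM, highest in replicate 1, and 2 of the 9 were detected at 1 CPM in every library. Pf4 had 3.53, 0.937 and 1.76 CPM and Itga2b 6.65, 3.15 and 2.49 CPM, and Gp9, the highest of the list, 6.55, 4.02 and 5.18 CPM, beside 2245, 1793 and 2545 CPM of Vwf. No platelet gene of the list was at 0 counts, and the part of platelet transcripts in the values of Vwf and Selp was not tested. Leukocyte genes summed to 52.7, 36.0 and 35.6 CPM led by Ptprc at 26.1 ± 5.33 CPM, with Ly6g and Mcpt4 at 0 in at least 1 library. The 6 erythroid genes, led by Hbb-bs, summed to 1089, 134 and 62.5 CPM, and none of these was at 0 counts. Neither list was highest in replicate 2.

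**Figure D3:**
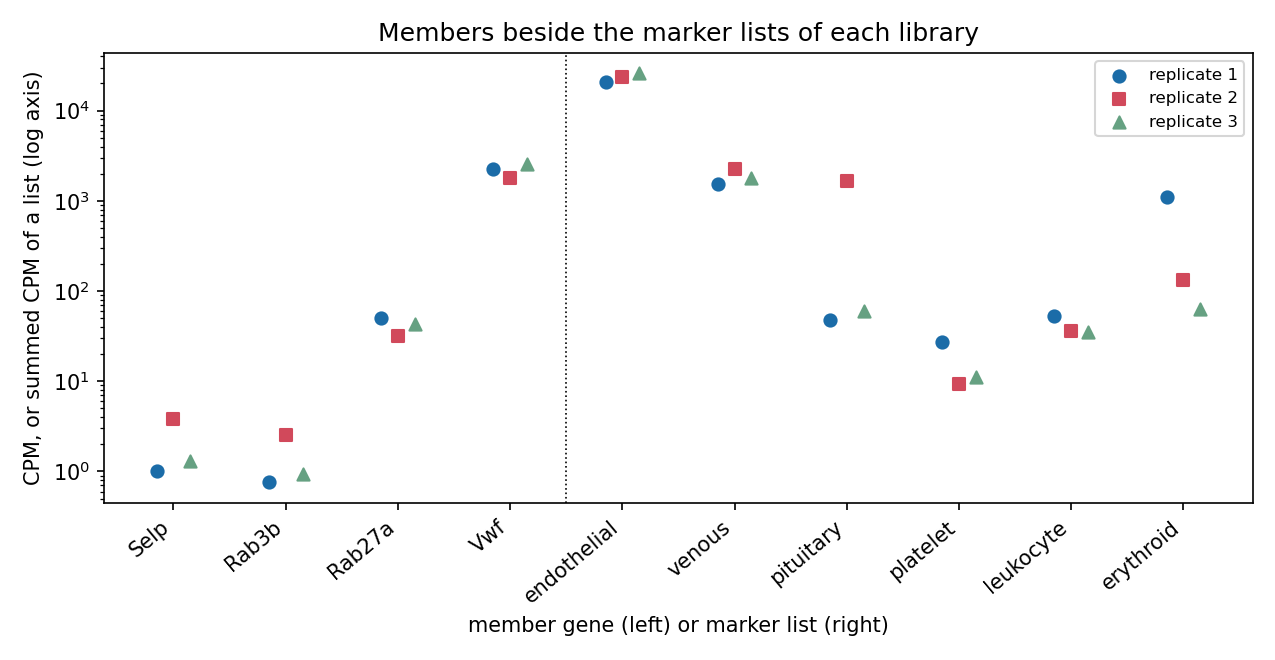
CPM of Selp, Rab3b, Rab27a and Vwf (left of the dotted line) and summed CPM of 6 marker lists (right) in replicates 1, 2 and 3, on a log axis. Selp, Rab3b and the pituitary and venous lists share their highest library, replicate 2, while the platelet, leukocyte and erythroid lists are highest in replicate 1.

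The start regions of Selp and Rab3b, the genes that were high together in replicate 2, are printed beside that of Rab3d, a paralog that stayed within 1.27-fold. The sequences are RefSeq's for GRCm38.p6, from 250 bases before to 50 after the annotated start, written 5′ to 3′ on the gene's strand; 6 of the 8 members had an entry, and Vwf and Unc13d had none. They lie at chr1:164115014-164115313 on the + strand for Selp, chr4:108878820-108879119 on the + strand for Rab3b and chr9:21918134-21918433 on the - strand for Rab3d. Capitals mark matches on either strand to TATAAA, a core promoter element, to GGGCGG, a word that SP1 factors bind, and to AGGAAG, a word that ETS factors bind, and adjoining or overlapping matches run together.
Selp: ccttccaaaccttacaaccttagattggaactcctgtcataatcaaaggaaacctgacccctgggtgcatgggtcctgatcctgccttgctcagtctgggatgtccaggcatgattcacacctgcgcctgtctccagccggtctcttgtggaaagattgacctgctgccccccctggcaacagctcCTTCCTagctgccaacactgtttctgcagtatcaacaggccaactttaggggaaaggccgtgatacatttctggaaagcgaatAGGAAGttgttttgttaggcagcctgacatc
Rab3b: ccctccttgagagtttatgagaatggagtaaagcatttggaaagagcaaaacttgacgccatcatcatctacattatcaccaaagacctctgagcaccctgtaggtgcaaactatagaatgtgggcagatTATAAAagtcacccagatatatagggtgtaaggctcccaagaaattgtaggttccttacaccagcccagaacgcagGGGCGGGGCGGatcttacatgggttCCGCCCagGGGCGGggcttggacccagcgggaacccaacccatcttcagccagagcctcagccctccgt
Rab3d: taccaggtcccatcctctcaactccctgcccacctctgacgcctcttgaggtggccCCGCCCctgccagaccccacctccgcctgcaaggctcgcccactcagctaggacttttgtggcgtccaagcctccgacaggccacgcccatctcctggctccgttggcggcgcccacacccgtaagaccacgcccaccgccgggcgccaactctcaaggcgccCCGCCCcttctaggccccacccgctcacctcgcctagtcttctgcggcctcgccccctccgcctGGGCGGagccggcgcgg

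Of the 3 marked words, none was found in both the Selp and the Rab3b window. The Selp window had AGGAAG in 2 places, with no GGGCGG or TATAAA. The Rab3b window had GGGCGG in 4 places, of which 2 overlap, and TATAAA in 1, with no AGGAAG. The Rab3d window was richer in G and C, 71.0% against 51.7% in each of the other windows and a median of 52.7% over 32851 start regions, with GGGCGG in 3 places and no TATAAA or AGGAAG. Of all 32851 regions of this length, 13.6% held TATAAA, 35.7% GGGCGG and 35.3% AGGAAG. The word AGATAA, bound by factors of the GATA family and found in 11.2% of all regions, was in none of the 3 windows, and CACCC, bound by KLF factors and found in 57.5%, was in each. A match is a description of the letters and not a site in use.

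The wider machinery was read from 83 other genes listed by role. Of these, 68 were detected at 1 CPM in every library, against 23.2% of all 56941 genes, and 81 were fitted in edgeR. At an adjusted p under 0.05, edgeR called 0 of the 81 as varying beyond the trend, against 0.0829% of all fitted genes. With no adjustment, 5 of 81 lay under 0.05, against 5.18%. DESeq2 marked 2 of the 83, Cxcl1 and Plat, against 0.449% of the 30513 genes with a count. No steadiness of the pathway is read from these counts. The 81 fitted genes had a median span of 0.32 on the log2 scale, against 0.33 over all fitted genes. None of the 81 was 2-fold higher in replicate 2 than in both other libraries, against 0.746% of all fitted genes.

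Other cargo ranged from very abundant to scarce. Igfbp7, a secreted binding protein found in these granules, had 3364 ± 426 TPM, above Vwf per length. In CPM it was below Vwf, with means of 1190 and 2194 CPM. Ece1, the endothelin-converting enzyme, had 446 ± 44.7 TPM, and Plat, tissue plasminogen activator, 338 ± 155 TPM. Plat was uneven, at 574, 346 and 943 CPM, lowest in replicate 2 (edgeR adjusted p = 0.613). Edn1, the endothelin-1 gene, had 164 ± 34.3 TPM and Angpt2, the Tie2 ligand, 42.1 ± 7.62 TPM; these and Cxcl1 were named after their values were seen. The chemokine gene Cxcl1 had 0.584, 3.66 and 2.18 CPM (edgeR adjusted p = 0.491). It was highest in replicate 2, but only 1.67-fold above replicate 3. Tnfrsf11b, osteoprotegerin, had 0.966 ± 0.421 TPM.

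Among the other small GTPases, 8 of 12 were detected, and Rap1b (334 ± 47.1 TPM), Rap1a (154 ± 15.1 TPM) and Rab35 (128 ± 7.46 TPM) were the highest; Rap1 carries the cyclic AMP signal for granule release. The effectors and regulators had 10 of 13 detected. Myrip, which links Rab27a to actin motors, led them with 91.4 ± 30.1 TPM. Myrip was lowest in replicate 2, at 162, 91.2 and 193 CPM (edgeR adjusted p = 0.630). Next came Tbc1d10a (50.8 ± 6.42 TPM), a GTPase-activating protein for Rab27a, and Rab3il1 (36.3 ± 3.42 TPM), an exchange factor for Rab3.

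The membrane fusion genes were detected without exception, 13 of 13, with a median span of 0.23 on the log2 scale. Vamp3 had 235 ± 13.8 TPM and Vamp8 146 ± 8.26 TPM, both vesicle SNAREs, and Napa, which recycles SNAREs, had 96.9 ± 7.85 TPM. Syt5, a calcium sensor, was the lowest at 3.85 ± 0.418 TPM. All 18 biogenesis genes were detected too. Klf2, a flow-responsive transcription factor, had 2398 ± 727 TPM, the GTPase gene Arf1 685 ± 52.5 TPM and the clathrin heavy chain gene Cltc 251 ± 25.02 TPM, down to Hps3 at 10.8 ± 1.29 TPM.

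Of the 14 genes of release signalling, 13 were detected. Rac1 had 432 ± 34.3 TPM, Anxa2, which anchors granules at the membrane, 303 ± 33.1 TPM and the non-muscle myosin gene Myh9 258 ± 20.5 TPM. The histamine receptor Hrh1 was the exception, at 0.884, 0.808 and 0.455 CPM. Outside the cell, Selplg, which encodes the P-selectin ligand of leukocytes, had 497 ± 67.4 TPM. In CPM it had 658, 510 and 695, beside 52.7, 36.0 and 35.6 for the summed leukocyte list. Which cells its transcripts came from was not tested. The other 4 partner genes were below the limit in at least 1 library. Gp1ba, the platelet receptor for von Willebrand factor, had 1.01 ± 0.292 CPM. F8, whose protein travels in plasma bound to von Willebrand factor, had 1.11 ± 0.342 CPM. Adamts13, the protease that cuts von Willebrand factor, had 0 counts in replicate 1, which allows up to 0.0231 CPM, and 0.0143 and 0.0138 CPM in replicates 2 and 3.

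**Figure D4:**
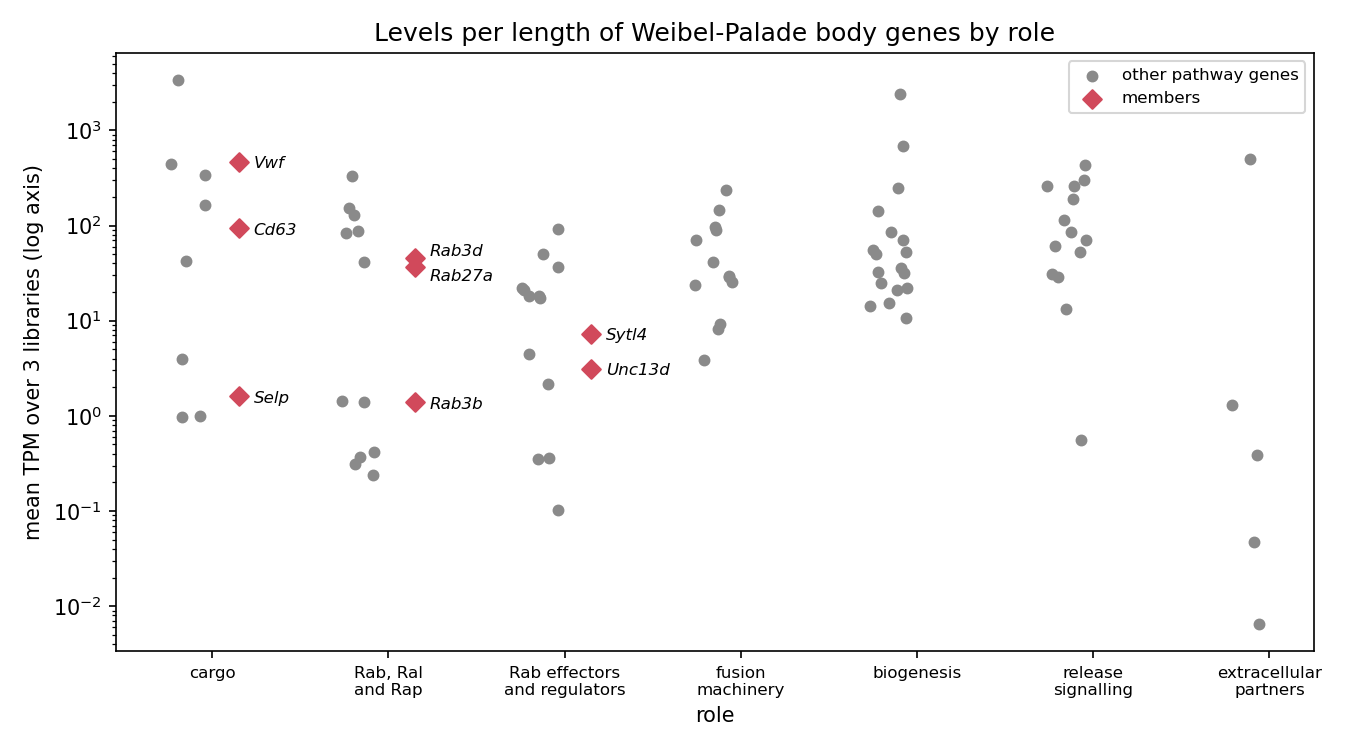
Mean TPM over 3 libraries (log axis) of the 8 members (red diamonds, named) and the 83 other pathway genes (grey points), grouped by role. Vwf stands at 467 TPM among abundant cargo, while Selp and Rab3b lie near 1 TPM.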

How the data were processed

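Polyadenylated RNA of brain microvascular fragments was sequenced in 3 libraries of 1 group, 1 per replicate. The authors' deposited table holds raw counts per gene, made with featureCounts and Subread 1.4.6-p5 on GRCm39, per the submitters' processing notes. The aligner, annotation release, strand setting and handling of reads with several matches are not stated in these sources. Depth was 128428355, 136672205 and 150449539 counts, so 0 counts allow up to 0.0231, 0.0215 and 0.0207 CPM (3 counts, counting error only).

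CPM used edgeR 4.0.16 TMM effective library sizes (R 4.3.3). TPM used exonic lengths from GENCODE M21 (GRCm38, another build, so used only for lengths, overlaps and shared sequence; 49086 genes with 98.3% of the counts). Variability was tested in an intercept-only edgeR quasi-likelihood fit of the genes kept by filterByExpr, by an upper-tail F test of each dispersion against the trended prior with Benjamini-Hochberg adjustment over all 18087 genes, after tests on simulated data. DESeq2 1.42.0, other scalings, filters, thresholds and lengths, and leaving out each library, were alternatives. P-values measure how far a gene's spread between these 3 samples exceeds the trend over the fitted genes. A gene that is not called may still vary between the mice as much as that trend or more. Selp and Rab3b were not called in the main fit, though their dispersions were 15.1 and 10.6 times the trended prior.

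The members and lists were chosen with earlier results of these data known. Named were all members, the 3 highest and the lowest gene by TPM of each role list, Rab3, Rab27 and Sytl paralogs, genes past the variability threshold, the highest gene of each cell type list and its defining genes; exceptions are marked. Lists whose sums are not given elsewhere: microglia, led by Csf1r, summed to 8239, 6365 and 7864 CPM, neurons, led by Stmn2, to 121, 97.1 and 114 CPM, and pericytes with smooth muscle, led by Acta2, to 8767, 8131 and 8613 CPM. A marker of the erythroid list is not reported here.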

Additional observations from a re-analysis of the deposited data

How the results depend on the processing

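No paired analysis was possible because the 3 libraries form a single group. The number of members detected was 7 under each of the 3 other scalings and without any replicate in turn, 8 at 0.5 CPM and 5 at 5 CPM; the other pathway genes detected numbered 68 to 70 without each replicate, 74 at 0.5 CPM and 64 at 5 CPM. The order of the 8 levels was the same with the longest and the principal transcript lengths and without each replicate. The edgeR test called 0 members in 6 of its alternatives and 1, Selp, with no filter on low counts, and DESeq2 marked 1. Of the other pathway genes, 2 (Cxcl1 and Plat) were called with no filter on low counts and 2 by DESeq2. Over all genes, 15 were called, against 173 with no filter on low counts, 137 by DESeq2, 0 with a robust prior and 7 to 80 without each replicate (7, 80 and 33 without replicates 1, 2 and 3); the cause was not tested. The 48 alternative values of the members' mean CPM moved by less than 1 SD, but for Selp and Rab3b replicate 2 itself makes that SD large: without it their means were 1.15 and 0.849 CPM, against 2.05 and 1.41 CPM. Of 32 alternative spans, 6 moved by over 1.5 times: those of Selp and Rab3b shrank to 1.27 and 1.01 on the log2(CPM + 1) scale, and endothelial marker scaling gave 0.50 for Cd63, 0.23 for Rab3d, 0.55 for Sytl4 and 0.35 for Unc13d. Depth limits Selp and Rab3b most, since they rest on 99 to 537 counts.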
